A study of Mus musculus with 9 samples.

Results

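Regulatory T cells (Tregs) from the gut of mice carrying Y3 and lacking CD103 were compared with wild-type (WT) gut Tregs across all genes measured. The members are the 3 arrays of the Y3/CD103-/- group and the 3 WT arrays, taken by their titles, out of 9 arrays in all; the other 3 are from Y3 mice that keep CD103. Mice were of the C57BL/6 strain, and Tregs were sorted by flow cytometry from lamina propria of both the small and the large bowel on a red fluorescent protein tied to Foxp3, so all 3 groups carry that reporter. WT mice have neither alteration, Y3 mice the first only, and Y3/CD103-/- mice both. The labels do not explain Y3. In this field the name stands for an IL-2 receptor β chain (gene Il2rb) whose signalling tyrosines have been mutated, but the sources used here do not say how it was placed in these mice, their age or sex, or whether an array holds 1 animal or a pool. There was no group lacking CD103 alone, so what the loss of CD103 does in a mouse with a normal β chain cannot be read from these arrays.

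Tregs restrain immune responses and depend on IL-2, which binds a receptor of α (CD25, gene Il2ra), β and γ chains. The β chain carries the signal to the kinases JAK1 and JAK3 and on to STAT5, which supports Foxp3 and the receptor itself. CD103 is the αE integrin chain (gene Itgae), which pairs with the β7 chain, binds E-cadherin on epithelial cells and marks many Tregs of the gut wall, where TGF-β induces it.

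All values are log2 signal after RMA, so a difference of 1 is a 2-fold change. Each array held 39137 features, and 12792 genes were tested with limma on all 9 arrays. A gene is said to rise or fall where its adjusted p was under 0.05. The labels do not say that the arrays come from separate animals, so p-values measure the spread between these arrays only. The 95% interval of the median gene reached 0.45 log2 to either side, a precision set by the number of arrays. T cell markers had a mean of 9.43 ± 0.10 (SD, n = 3) in WT and 9.41 ± 0.07 in Y3/CD103-/-. The mean of the 5 Treg markers was 9.13 ± 0.04 and 9.12 ± 0.06, although its members went both ways: Il2ra fell and the other 4 were higher without passing. Epithelial markers stood apart within the groups. Their mean was 5.20, 5.90 and 4.84 in WT and 5.32, 4.16 and 3.79 in Y3/CD103-/- arrays 1, 2 and 3, of which the first lay within the WT range and the other two below it. In these bulk samples, fewer cells of a kind and less RNA per cell cannot be told apart.

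Of the 12792 genes, 107 changed in Y3/CD103-/- against WT (0.836%), 71 upward (0.555%) and 36 downward (0.281%). The largest changes that passed were rises of the lymphocyte surface protein Cd7, of the mucosal trefoil peptide Tff1, of the IL-12 and IL-1 receptors and of NK and Th1 genes, and falls of the IL-25 receptor, the lectin-like receptor Klrg1, the IL-10 receptor and the GTPase Gbp2b. Among the risen genes 47 rose at least 2-fold and 5 at least 4-fold, and among the fallen genes 26 fell at least 2-fold and 3 at least 4-fold. The smallest change that passed was 0.72 log2 and the median change 1.11. The 3 arrays of each group did not overlap for any of the 107, as for 2229 of all tested genes (17.4%). At an unadjusted p under 0.05, 1011 genes were higher (7.9%) and 684 lower (5.35%), 13.3% in all. The median difference of all tested genes was 0.04, and 55.1% of them were higher. The calls are sensitive to the number of arrays: the count was 61, 50 and 53 without WT arrays 1, 2 and 3, 59, 70 and 55 without Y3 arrays 1, 2 and 3, and 49, 50 and 28 without Y3/CD103-/- arrays 1, 2 and 3. With each of the 9 arrays left out in turn, 22 genes passed every time, 14 up and 8 down, and 20 passed in no such fit.

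**Figure D1:**
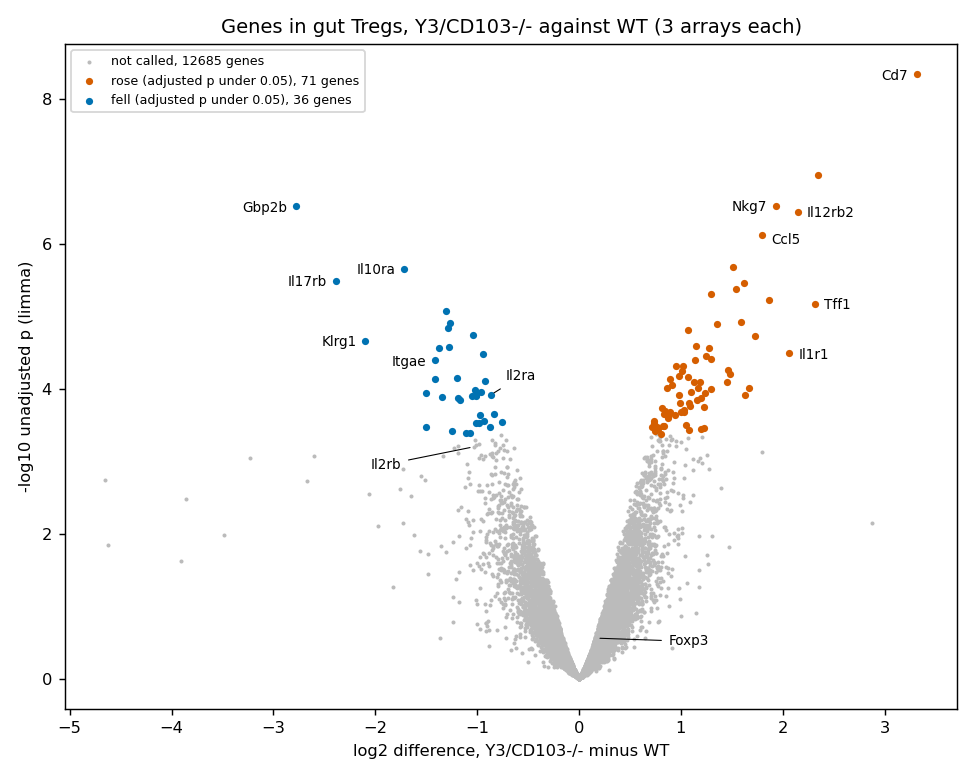
Each point is 1 of 12792 genes, with the log2 difference Y3/CD103-/- minus WT (3 arrays each) on the horizontal axis and the negative log10 of the unadjusted limma p on the vertical axis. The 71 genes that rose are orange and the 36 that fell blue; Cd7 lies farthest up and to the right, Gbp2b highest on the left, and Il2rb and Foxp3 among the genes that did not pass.

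Itgae was examined first, with Il2rb, which is an altered gene only if Y3 has the meaning given above. Itgae stood at log2 8.06, 7.87 and 7.85 on the WT arrays and at 6.64, 6.05 and 6.86 on the Y3/CD103-/- arrays. The groups did not overlap, and Itgae fell 2.66-fold (-1.41 ± 0.21 log2, SE, adjusted p = 0.0159; 0.0538 without WT array 1, the only omission under which it did not pass). Signal remained above the array medians, which ran from 3.15 to 3.23, and the sources used here do not say which part of Itgae the feature reads. Itgb7, which encodes the partner chain of CD103, stood at 6.87, 7.34 and 7.12 in WT and 6.98, 7.28 and 7.07 in Y3/CD103-/-, a difference of 0.00 with a 95% interval of -0.36 to 0.36.

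Il2rb stood at 9.27, 8.95 and 9.36 in WT and 7.86, 8.48 and 8.14 in Y3/CD103-/-. Every Y3/CD103-/- array lay below every WT array, but the difference of -1.03 ± 0.22 did not pass (adjusted p = 0.0590) in the fit or with any 1 array left out. The sources used here do not say whether the Il2rb feature reads a native transcript, an altered one or both. Il2ra, the α chain that gives the receptor its high affinity, stood at 8.11, 8.15 and 8.19 in WT and 7.12, 7.29 and 7.45 in Y3/CD103-/-. It fell 1.82-fold (-0.86 ± 0.15, adjusted p = 0.0258), a call that held without Y3 array 2 and was lost on leaving out each of the other 8 in turn (adjusted p up to 0.0809). Of the 6 tested genes of the IL-2 receptor and STAT5 list, Il2ra was the only one that fell and 0 rose. STAT5 itself lay the other way. Stat5a stood at 6.32, 5.94 and 6.44 in WT and 6.84, 6.93 and 7.09 in Y3/CD103-/-, and Stat5b at 7.92, 7.91 and 7.91 against 8.38, 8.39 and 8.40. The groups did not overlap in either gene, yet neither difference passed (0.72, adjusted p = 0.0881, and 0.48, adjusted p = 0.147). Foxp3 stood at 9.37, 9.48 and 9.29 in WT and 9.51, 9.62 and 9.53 in Y3/CD103-/-, a difference of 0.17 (95% interval -0.16 to 0.50, adjusted p = 0.675).

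The Th1 programme, the genes by which T cells respond to IL-12 and IL-18 and make interferon-γ, held more risen genes than any other list examined. Of its 20 tested members 7 rose and 0 fell, 16 were higher, and the median difference was 0.63 against 0.04 for all tested genes. Over all tested genes 0.555% rose, 0.281% fell and 55.1% were higher, the shares to set beside the counts of any list. The lists were chosen with earlier results of these data known. Il12rb2, the signalling chain of the IL-12 receptor, stood at 4.58, 5.01 and 5.12 in WT and 6.81, 7.08 and 7.27 in Y3/CD103-/-. It rose 4.43-fold (2.15 ± 0.20, adjusted p = 0.000934). Both chains of the IL-18 receptor rose. Il18rap went from 6.34, 6.72 and 6.38 to 8.14, 7.91 and 8.25, a rise of 1.62 ± 0.19 (adjusted p = 0.0045), and Il18r1 from 7.40, 7.22 and 7.15 to 8.71, 8.21 and 8.69 (1.28 ± 0.19, adjusted p = 0.0129). Ifng, which encodes interferon-γ, stood at 3.72, 4.14 and 3.96 in WT and 4.93, 5.87 and 5.40 in Y3/CD103-/-. It rose 2.75-fold (1.46 ± 0.23, adjusted p = 0.0197). Ccl5, a chemokine of effector and memory T cells, stood at 7.78, 7.76 and 8.19 against 9.46, 9.76 and 9.91 and rose 3.48-fold (adjusted p = 0.00161). Nkg7, a membrane protein of cytotoxic granules, stood at 6.41, 6.81 and 6.72 against 8.59, 8.35 and 8.81 and rose 3.82-fold (adjusted p = 0.000934). In each of these genes all 3 Y3/CD103-/- arrays lay above all WT arrays. Cxcr3, the chemokine receptor of Th1 cells, rose by 1.00 ± 0.18 (adjusted p = 0.0347). Tbx21, which encodes the Th1 master factor T-bet, stood at 3.93, 4.15 and 3.73 in WT and 4.88, 4.52 and 4.64 in Y3/CD103-/-. Its difference of 0.75 did not pass (adjusted p = 0.0881), nor did the 0.69 of Runx3, a partner of T-bet (adjusted p = 0.0872). Il12rb2, Il18rap, Ccl5 and Nkg7 passed with each array left out. Il18r1 did not pass without Y3/CD103-/- array 3 (0.0692), nor Ifng without WT array 1 (0.0603), WT array 3 (0.0515) or Y3/CD103-/- array 3 (0.0756), and Cxcr3 passed only without Y3/CD103-/- array 1 (0.0506 to 0.127 without any 1 of the others).

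STAT dimers bind the palindrome TTCNNNGAA, and IL-2 signals through STAT5, so promoters were searched for it. Those shown were chosen because they hold the motif: the 4 risen Th1 genes that do and the fallen gene Il7r. Of the other risen Th1 genes, Il18rap and Cxcr3 have no match in this window and Ccl5 has no sequence in the table. The sequences are the 250 bases before the gene's start, 5′ to 3′ on the gene's strand, from RefSeq on GRCm38.p6, with the motif in capitals. Ifng lies at chr10:118440796-118441045 (+), Il12rb2 at chr6:67376189-67376438 (-), Il18r1 at chr1:40465756-40466005 (+), Nkg7 at chr7:43436888-43437137 (+) and Il7r at chr15:9529877-9530126 (-).
Ifng: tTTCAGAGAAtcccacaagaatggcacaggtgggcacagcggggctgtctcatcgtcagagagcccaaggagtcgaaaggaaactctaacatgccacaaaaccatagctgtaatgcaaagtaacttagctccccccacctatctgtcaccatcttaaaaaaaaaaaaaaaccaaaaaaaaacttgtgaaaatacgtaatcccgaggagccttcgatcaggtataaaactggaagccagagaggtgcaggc
Il12rb2: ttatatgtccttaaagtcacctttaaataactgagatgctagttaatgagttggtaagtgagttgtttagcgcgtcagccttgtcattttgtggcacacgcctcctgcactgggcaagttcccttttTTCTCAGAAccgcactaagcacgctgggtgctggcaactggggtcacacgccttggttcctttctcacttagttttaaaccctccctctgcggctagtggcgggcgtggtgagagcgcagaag
Il18r1: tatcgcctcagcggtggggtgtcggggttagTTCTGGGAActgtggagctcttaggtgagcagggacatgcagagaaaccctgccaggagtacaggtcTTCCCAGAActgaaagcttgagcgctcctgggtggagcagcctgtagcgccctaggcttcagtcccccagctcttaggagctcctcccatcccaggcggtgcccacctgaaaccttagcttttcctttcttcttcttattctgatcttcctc
Nkg7: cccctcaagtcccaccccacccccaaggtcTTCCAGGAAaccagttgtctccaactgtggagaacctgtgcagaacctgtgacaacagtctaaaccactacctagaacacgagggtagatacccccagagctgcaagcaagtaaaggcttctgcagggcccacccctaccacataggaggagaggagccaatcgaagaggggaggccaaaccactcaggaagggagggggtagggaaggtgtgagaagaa
Il7r: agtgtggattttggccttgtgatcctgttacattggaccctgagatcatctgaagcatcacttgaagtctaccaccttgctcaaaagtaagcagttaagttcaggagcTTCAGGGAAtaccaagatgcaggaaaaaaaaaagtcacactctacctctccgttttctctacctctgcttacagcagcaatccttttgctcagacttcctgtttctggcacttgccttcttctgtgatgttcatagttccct
The motif reads the same on both strands, so 1 search covered both. Il18r1 held it 2 times and the other 4 genes once each. Among the 7 risen Th1 genes 6 had a promoter sequence, and 4 of those held the motif (66.7%), as did 5 of 17 tested Th1 genes with a sequence (29.4%). It was found in 8 of 54 risen genes with a sequence (14.8%), 2 of 20 fallen genes (10.0%) and 721 of 9993 tested genes (7.20%). These shares describe letters in a window and were not tested.

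Cytotoxic granule and NK receptor genes lay mostly higher. Of 16 tested, 4 rose and 0 fell (0.555% and 0.281% of all tested genes), 14 were higher, and the median difference was 0.56. Gzma stood at 9.15, 9.17 and 8.95 in WT and 10.31, 10.50 and 10.33 in Y3/CD103-/-, and Gzmb at 9.12, 9.24 and 9.23 against 10.19, 10.38 and 10.22. Both encode granzymes, the proteases of cytotoxic granules, and both separated the groups on every array. Gzma rose 2.45-fold (1.30 ± 0.16, adjusted p = 0.00537) and Gzmb 2.10-fold (1.07 ± 0.15, adjusted p = 0.0101), each with any array left out. Nkg7 rose as given above, and Ctsw, a cathepsin of cytotoxic lymphocytes, rose by 0.98 ± 0.17 (adjusted p = 0.0258), which passed only without Y3 array 2 (0.0529 to 0.0966 without any 1 of the others). Gzmk differed by 1.16 (adjusted p = 0.0708) and the pore-forming protein gene Prf1 by 0.31 (adjusted p = 0.703). Gzma, Gzmb and Nkg7 are also markers of CD8, γδ and NK cells, a list of 19 genes of which 13 were tested. These 3 were its only risen genes, 8 of the 13 were higher, and the median difference was 0.31. With an unadjusted limma p under 0.05, 5 were higher and 0 lower, against 7.9% higher and 5.35% lower over all tested genes. The list's mean was 4.99, 5.04 and 5.28 in WT against 5.54, 5.39 and 5.74 in Y3/CD103-/-. The members Cd8a, Cd8b1 and Ncr1 were picked after their values were seen and do not stand for the list, most of which was higher. Cd8a stood at 3.05, 3.10 and 3.00 in WT and 3.07, 3.27 and 4.06 in Y3/CD103-/-, near the array medians except on the last array. Cd8b1 stood at 4.62, 4.55 and 4.24 against 3.90, 3.45 and 4.19. Ncr1, a receptor of NK cells, read 3.72, 3.75 and 4.14 against 3.79, 3.33 and 3.67. Xcl1, a chemokine of NK and CD8 cells, read 6.55, 7.30 and 7.37 in WT and 8.16, 8.03 and 8.81 in Y3/CD103-/-. It was higher on every Y3/CD103-/- array, but the difference of 1.26 did not pass (adjusted p = 0.0669). The part of such cells in the cytotoxic values was not tested.

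Other cytokine receptors changed in both directions, with 5 of 26 tested genes up, 4 down and a median difference of -0.07. Over all tested genes 0.555% rose and 0.281% fell. Besides the IL-12 and IL-18 receptor chains, Il1r1, the signalling receptor of IL-1, went from 3.73, 3.82 and 3.27 to 5.27, 6.15 and 5.58. It rose 4.18-fold (2.06 ± 0.30, adjusted p = 0.0146). Il21r, the IL-21 receptor, rose by 0.90 ± 0.15 (adjusted p = 0.0223). The largest fall among receptors was that of Il17rb, which binds IL-25. It stood at 6.32, 6.30 and 6.42 in WT and at 4.69, 3.77 and 3.43 in Y3/CD103-/-, and fell 5.22-fold (-2.38 ± 0.27, adjusted p = 0.0045). Il10ra, through which IL-10 acts on the Treg, stood at 5.62, 5.88 and 6.06 against 4.09, 4.38 and 3.95 and fell 3.29-fold (-1.72 ± 0.19, adjusted p = 0.00356). No array of either group reached into the range of the other for these 3 receptors. Il10 itself stood at 10.32, 10.46 and 10.48 in WT and 9.46, 9.87 and 9.48 in Y3/CD103-/-, and the difference of -0.81 did not pass (adjusted p = 0.0688). Il6st, the shared signalling chain of the IL-6 family, fell by 0.88 (adjusted p = 0.0447). Il17rb and Il10ra passed with each array left out, while Il1r1 did not without WT array 3 (0.0506) or Y3/CD103-/- array 3 (0.0580). Il21r did not without WT array 1 (0.0637), WT array 3 (0.0515) or a Y3/CD103-/- array, whichever it was (0.0511 to 0.0911), and Il6st passed only without Y3 array 2 (0.0744 to 0.147 without any 1 of the others).

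**Figure D2:**
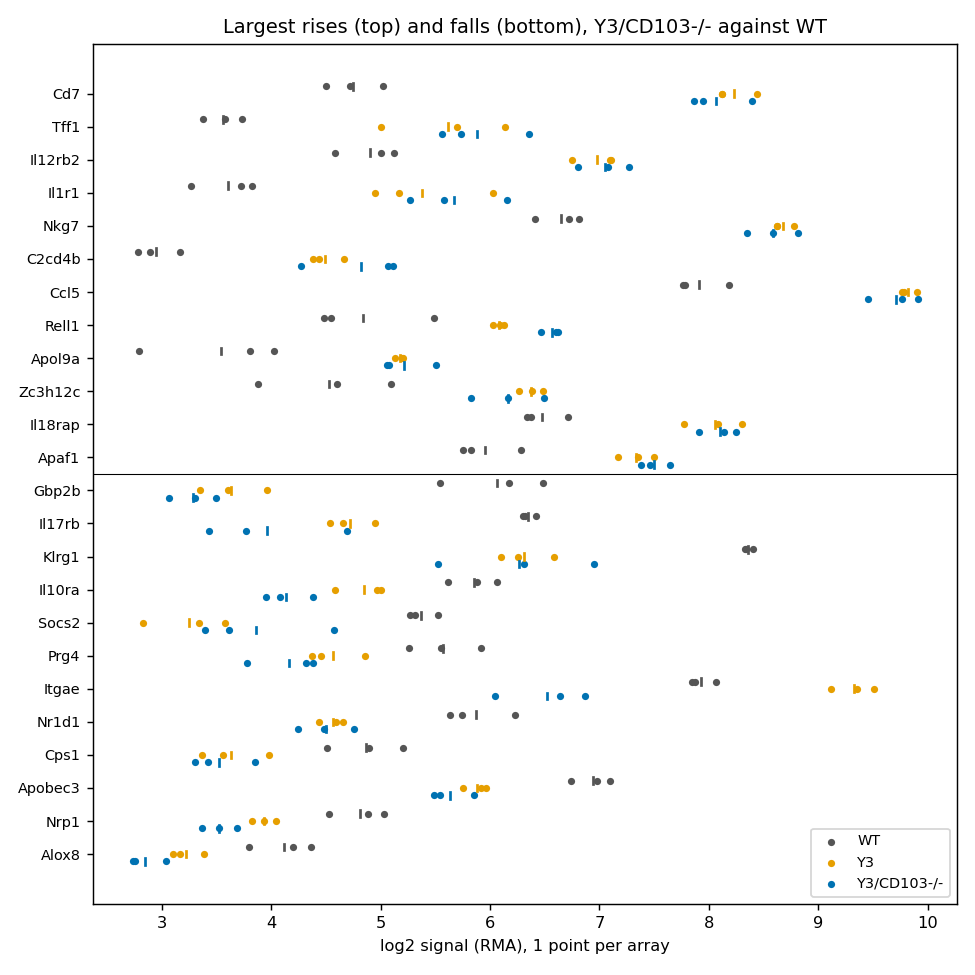
Each point is 1 array and each short bar a group mean, with log2 RMA signal on the horizontal axis, for the 12 largest rises (top) and 12 largest falls (bottom) between Y3/CD103-/- (blue) and WT (grey); Y3 arrays are orange. Blue and grey points do not overlap in any of these genes, and Itgae is the gene whose orange points lie on the far side of WT.

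Genes that respond to IL-2 and STAT5 went both ways. Of 27 tested, 1 rose and 3 fell, 20 were lower, and the median difference was -0.19. Of all tested genes 0.555% rose, 0.281% fell and 55.1% were higher. Socs2, a feedback inhibitor that STAT5 induces, stood at 5.52, 5.27 and 5.31 in WT and 3.39, 4.58 and 3.61 in Y3/CD103-/-. It fell 2.84-fold (-1.51 ± 0.29, adjusted p = 0.0447), with array 2 nearest to WT, and passed only without that array (0.0556 to 0.147 without any 1 of the others). Il7r, which makes the IL-7 receptor's own chain, stood at 8.88, 8.82 and 9.0 against 7.53, 7.92 and 7.76 and fell 2.24-fold (adjusted p = 0.0271). It passed only without Y3 array 1 or 2 (0.0593 to 0.0989 without any 1 of the others). Klrg1 was the third fall and Gzmb the rise. Other feedback genes of the same pathway did not pass: Socs3 differed by 0.71 (adjusted p = 0.0922) and Cish by -0.20 (adjusted p = 0.603).

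Of 30 tested Treg identity genes, 6 fell (Klrg1, Socs2, Itgae, Nrp1, Lrrc32 and Il2ra) and 1, Gzmb, rose, while the median of the list was 0.05 and 16 members were higher. Over all tested genes 0.281% fell and 0.555% rose. Itgae is the gene targeted in these mice, so its fall is no result about Treg identity. Klrg1, an inhibitory lectin-like receptor of highly differentiated Tregs, stood at 8.33, 8.34 and 8.41 on the WT arrays. On the Y3/CD103-/- arrays it stood at 6.31, 6.95 and 5.53, so the WT arrays lay close together and the others were spread. Klrg1 fell 4.27-fold (-2.10 ± 0.30, adjusted p = 0.0122), with any array left out. Nrp1, a semaphorin receptor found on thymus-derived Tregs, read 4.53, 5.03 and 4.88 against 3.52, 3.69 and 3.37 and fell 2.45-fold (adjusted p = 0.00976; 0.0510 without Y3/CD103-/- array 3). Lrrc32, which encodes GARP, the surface anchor of latent TGF-β, read 8.15, 8.13 and 7.84 against 7.04, 7.29 and 6.56. It fell 2.11-fold at an adjusted p of 0.0498, which no fit with an array left out upheld (0.0552 to 0.146). The inhibitory receptor Ctla4 differed by 0.07 (95% interval -0.25 to 0.39) and Ikzf2, which encodes the Treg factor Helios, by 0.38 (adjusted p = 0.238). Of 20 tested suppressive molecules, Gzma and Gzmb rose and Lrrc32 fell.

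The GATA3 tissue programme, which marks Tregs that respond to IL-33 and IL-25 in barrier tissues, lay lower. Of 18 tested members 0 rose and 2 fell, Il17rb and Klrg1, against 0.555% and 0.281% of all tested genes. In this list 14 members were lower, and the median difference was -0.34. Gata3 stood at 7.59, 7.56 and 7.45 in WT and 7.03, 6.94 and 6.82 in Y3/CD103-/-. The groups did not overlap, but the difference of -0.60 did not pass (adjusted p = 0.0847). Il17rb, Klrg1 and Il7r are also markers of innate lymphoid cells. Of that list 14 of 18 genes were tested, these 3 fell and Il1r1 rose, and its mean ran from 5.67 to 5.85 on the WT arrays and from 5.58 to 5.70 on the Y3/CD103-/- arrays. The part of such cells in these values was not tested. In the RORγt and Th17 programme, 2 of 14 genes rose (Il1r1 and Stat3) and 2 fell (Il6st and Ccl20, a chemokine that attracts Th17 cells, by 0.96). Stat3 did not pass with any 1 array left out (0.0595 to 0.139), and Ccl20 passed only without WT array 1 or Y3 array 2 (0.0516 to 0.0774 without any 1 of the others).

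**Figure D3:**
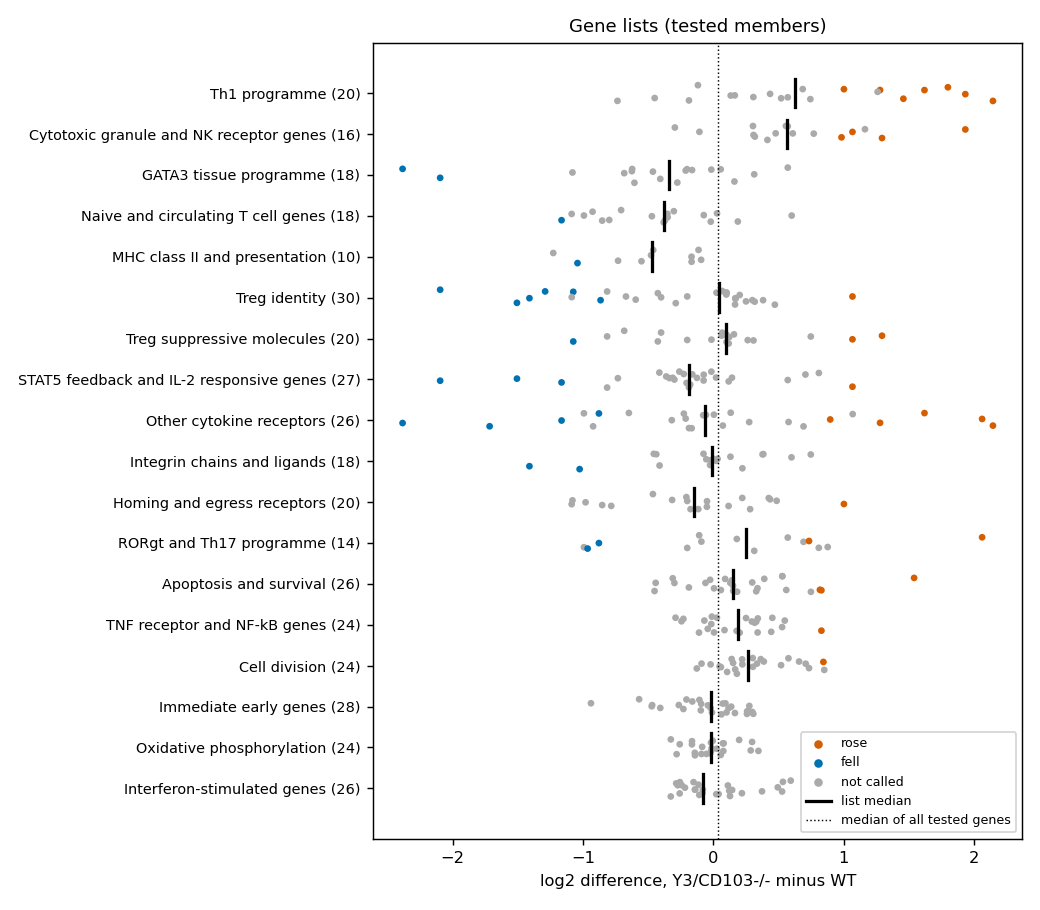
Each point is a tested gene of a list, placed by its log2 difference Y3/CD103-/- minus WT, orange where it rose, blue where it fell and grey where it did not pass; the number tested is in brackets, the bar is the list's median and the dotted line the median of all tested genes, 0.04. The Th1 median lies at 0.63 and the cytotoxic one at 0.56, the GATA3 median at -0.34, and the medians of immediate early and oxidative phosphorylation genes near 0.

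Among 18 tested integrin chains and their ligands, the targeted gene Itgae and Itga6, the α6 chain, fell and 0 rose. Of all tested genes 0.281% fell and 0.555% rose. Itga6 stood at 6.47, 6.36 and 6.13 in WT and 5.35, 5.23 and 5.30 in Y3/CD103-/- and fell 2.04-fold (adjusted p = 0.0256; 0.0636 to 0.0921 without WT array 1, WT array 2 or a Y3/CD103-/- array). Itgb8, whose protein activates latent TGF-β, read 7.03, 6.89 and 7.15 against 7.48, 7.75 and 8.08, and its difference of 0.75 did not pass (adjusted p = 0.0888). Of 22 tested genes that respond to TGF-β or retinoic acid, 1 fell, the targeted gene Itgae, and 1 rose. The rise was that of Furin, a convertase that matures TGF-β, by 1.03 (adjusted p = 0.0337, and 0.0585 to 0.101 without any 1 array other than WT array 2). Of 20 tested homing and egress receptors, Cxcr3 rose and 0 fell. Ccr9, the receptor for small intestinal homing, differed by 0.49 (adjusted p = 0.172), Gpr15, the receptor for the colon, by -0.78 (adjusted p = 0.288) and the egress receptor S1pr1 by -1.09 (adjusted p = 0.149).

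Genes of naive and circulating T cells lay lower, with 15 of 18 tested members lower, a median of -0.38 and Il7r as the only fall. Of all tested genes 0.281% fell and 55.1% were higher. Ccr7, which guides T cells to lymph nodes, read 9.57, 9.70 and 9.49 in WT and 8.55, 8.70 and 8.95 in Y3/CD103-/-, a difference of -0.85 that did not pass (adjusted p = 0.0669). All 10 tested MHC class II and presentation genes were lower, with a median of -0.47, and only H2-Ob fell (-1.04 ± 0.14, adjusted p = 0.0110). The groups overlapped for H2-Aa (-0.55, limma adjusted p = 0.483), H2-Ab1 (-0.48, 0.624) and H2-Eb1 (-0.09, 0.924). H2-Ob encodes a chain of the peptide-exchange inhibitor DO, and read 3.92, 3.68 and 3.82 against 2.85, 2.65 and 2.79, the latter below the array medians. Class II genes are those of B cells and myeloid cells: the mean of the B and plasma cell list was 3.64 to 3.97 on the WT arrays and 3.54 to 3.80 on the Y3/CD103-/- arrays, and that of the macrophage, monocyte and dendritic list 4.79 to 5.28 and 4.95 to 5.01. In these lists 0 of 10 and 0 of 20 tested genes passed, and 0 and 3 of them had an unadjusted limma p under 0.05, against 13.3% of all tested genes. T cell receptor signalling genes had 1 change among 23, the fall of Malt1, a scaffold protease on the way to NF-κB, by 0.92 (adjusted p = 0.0224; it passed only without Y3 array 2, Y3 array 3 or Y3/CD103-/- array 2, and 0.0509 to 0.0911 otherwise). In the NF-κB list 1 of 24 rose, Nfkb2 by 0.83 (adjusted p = 0.0362, and 0.0538 to 0.106 with an array left out). Immediate early genes (0 of 28) and heat shock genes (0 of 16) had none that passed. At an unadjusted limma p under 0.05, 0 immediate early genes were higher and 5 lower, and 0 heat shock genes higher and 2 lower. Over all tested genes those shares were 7.9% higher and 5.35% lower.

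No interferon-stimulated gene passed while Ifng rose. Of 26 tested, 0 passed in limma, with a median of -0.08. At an unadjusted limma p under 0.05, 3 were higher and 0 lower, against 7.9% higher and 5.35% lower over all tested genes. Of 12 guanylate-binding proteins and related GTPases that interferon-γ induces, only Gbp2b passed. It stood at 5.54, 6.18 and 6.49 in WT and 3.50, 3.30 and 3.07 in Y3/CD103-/- and had the largest fall among the named genes that passed, 6.86-fold (-2.78 ± 0.25, adjusted p = 0.000934), with any array left out. Close relatives of Gbp2b exist, and a feature shared by Gbp2 and Gbp2b differed by 0.36 (adjusted p = 0.559 over all features), so the fall is that of the feature of Gbp2b alone.

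Apoptosis and survival genes had 3 rises among 26 and 0 falls (0.555% and 0.281% of all tested genes), with a median of 0.15. Apaf1, the scaffold of the apoptosome, stood at 5.82, 5.75 and 6.28 in WT and 7.38, 7.46 and 7.65 in Y3/CD103-/- and rose 2.91-fold (1.54 ± 0.18, adjusted p = 0.00498), with any array left out. Casp4, an inflammatory caspase, rose by 0.82 (adjusted p = 0.0321) and Birc2, an inhibitor of apoptosis in TNF receptor signalling, by 0.83 (adjusted p = 0.0447). Neither passed with any 1 array left out (0.0516 to 0.119 and 0.0636 to 0.147). Clock genes had 1 rise and 1 fall among 15. Nr1d1, which encodes the repressor REV-ERBα, read 5.75, 6.23 and 5.63 against 4.76, 4.49 and 4.24 and fell 2.59-fold (adjusted p = 0.0129; 0.0652 without Y3/CD103-/- array 3). Cry2, another repressor of the clock, rose 1.88-fold (adjusted p = 0.0238; it passed only without WT array 1, Y3 array 2 or Y3/CD103-/- array 1, and 0.0512 to 0.1 otherwise). The sources used here do not give the hour of collection. Top2a, a topoisomerase of dividing cells, rose by 0.85 as 1 of 24 cell division genes (adjusted p = 0.0347, and 0.0535 to 0.1 with an array left out). Of the 24, 21 were higher, against 55.1% of all tested genes. Of 18 genes of cholesterol and fatty acid synthesis, Elovl6, a fatty acid elongase, rose 2.38-fold (adjusted p = 0.0152; 0.0545 and 0.0541 without Y3/CD103-/- arrays 1 and 2). Glycolysis and hypoxia genes (0 of 18) and oxidative phosphorylation genes (0 of 24) had none that passed. At an unadjusted limma p under 0.05, 2 glycolysis and hypoxia genes were higher and 1 lower, and 0 oxidative phosphorylation genes higher and 0 lower. Over all tested genes those shares were 7.9% higher and 5.35% lower.

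The largest rise of a named gene lay outside these pathways. Cd7, an immunoglobulin-family protein on the surface of T and NK cells, stood at 4.72, 5.02 and 4.5 in WT and 7.86, 7.94 and 8.39 in Y3/CD103-/-. It rose 9.97-fold (3.32 ± 0.20, adjusted p = 5.91e-05), with any array left out. Tff1, which encodes a trefoil peptide of the gastrointestinal mucosa, read 3.58, 3.74 and 3.38 against 5.74, 5.56 and 6.36 and rose 5.0-fold (adjusted p = 0.00617). It is not a member of the epithelial list. C2cd4b rose 3.65-fold from 2.78, 3.17 and 2.90, below the array medians, to 4.27, 5.12 and 5.07 (adjusted p = 0.00601). Rell1, of the RELT receptor family, rose 3.30-fold, Apol9a 3.19-fold and Zc3h12c, which encodes an RNA-degrading enzyme of the regnase family, 3.11-fold. Apol9a has a near-identical neighbour, so its signal may be shared. Other falls were those of Prg4, a secreted proteoglycan (2.66-fold), Cps1, a urea cycle enzyme (2.54-fold), Apobec3, a cytidine deaminase that restricts retroviruses (2.47-fold), and Alox8, a lipoxygenase (2.42-fold). For Rell1, Apol9a, Zc3h12c and these 4 falls adjusted p ran from 0.00735 to 0.0259. Tff1, C2cd4b, Apobec3 and Alox8 passed with each array left out. Rell1 did not without Y3/CD103-/- array 3 (0.0518), Apol9a without Y3 array 3 or any Y3/CD103-/- array (0.0524 to 0.0810), Prg4 without WT array 2 or 3 or Y3/CD103-/- array 1 or 3 (0.0516 to 0.0821), Cps1 without WT array 1 or 2, Y3 array 2 or Y3/CD103-/- array 2 or 3 (0.0518 to 0.106), and Zc3h12c without WT array 3, any Y3 array or Y3/CD103-/- array 2 or 3 (0.0511 to 0.101).

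Genes that neighbour Itgae and Il2rb were examined as well, in the gene order of GRCm38.p6. The sources used here do not say whether Y3 was placed at Il2rb. Itgae lies on chromosome 11 and Il2rb on chromosome 15. Of the 15 genes to either side of Itgae 13 were tested, and Atp2a3, a calcium pump that is the fifth gene before it, rose by 0.87 (adjusted p = 0.0244; 0.0515 to 0.0785 without any 1 array other than Y3 array 2) while 0 fell. Of the 13 tested near Il2rb, 0 passed. At an unadjusted limma p under 0.05, 1 was higher and 2 lower, against 7.9% higher and 5.35% lower over all tested genes. Within 80 genes of Il2rb, a span chosen after seeing the data, 3 of 77 tested genes passed: Apol9a rose, 43 genes before, and Apobec3 and Cbx7 fell, 74 and 75 genes after. Cbx7 passed only without WT array 1 (0.0502 to 0.101 without any 1 of the others). On chromosome 15 as a whole 10 of 536 tested genes passed (1.87%), on chromosome 11 11 of 1066 (1.03%) and over all chromosomes 0.836%.

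Set beside Y3 mice that keep CD103, the combined state differed in 1 gene. Itgae stood at 9.35, 9.11 and 9.51 in Y3, above WT, and fell by 2.81 from Y3 to Y3/CD103-/- (95% interval -3.28 to -2.34, adjusted p = 0.000679; 0.00782% of tested genes passed). At an unadjusted limma p under 0.05, 228 genes were higher (1.78%) and 1039 lower (8.12%) than in Y3, 9.9% in all. That split narrowed to 374 higher and 568 lower after quantile normalization and turned to 726 higher and 379 lower after centring each array on its median, as the median of all genes went from -0.10 to -0.02 and 0.05. The comparisons of Y3/CD103-/- and Y3 with WT share the WT arrays, so their values are only set side by side. Cd7 differed from WT by 3.32 in Y3/CD103-/- and 3.48 in Y3, Il12rb2 by 2.15 and 2.08, Ifng by 1.46 and 1.63, and Klrg1 by -2.10 and -2.05. Directly against Y3, the 95% interval was -0.60 to 0.28 for Cd7, -0.37 to 0.50 for Il12rb2, -0.68 to 0.33 for Ifng and -0.70 to 0.60 for Klrg1. Differences inside these intervals cannot be resolved with these arrays.

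Other differences from Y3 did not pass. Il10ra stood at 4.58, 5.0 and 4.97 in Y3, between the other groups, and its difference of -0.71 from Y3 (95% interval -1.13 to -0.29) had an adjusted p of 0.314. Il17rb stood at 4.54, 4.95 and 4.66 in Y3, below WT and overlapping with Y3/CD103-/- array 1, with -0.75 against Y3 (-1.36 to -0.15, adjusted p = 0.438). H2-Ob stood at 3.59, 3.64 and 3.52 in Y3, and differed by -0.82 from Y3 (adjusted p = 0.193) and -1.04 from WT. The class II genes H2-Aa, H2-Eb1 and H2-Ab1 lay above Y3, by 1.25 (limma adjusted p = 0.308), 1.08 (0.314) and 1.00 (0.438). The median of the class II and presentation list against Y3 was -0.13. Erdr1 read 8.13, 8.34 and 7.90 in WT, 8.24, 8.02 and 7.64 in Y3 and 9.30, 9.34 and 9.01 in Y3/CD103-/-, so that only the last group stood out. It rose 2.14-fold against WT (adjusted p = 0.0314; 0.0534 to 0.0953 without any 1 array other than Y3 arrays 1 and 3), while the difference of 1.25 from Y3 (0.82 to 1.69) did not pass (adjusted p = 0.179). Haspin, a mitotic kinase gene that lies within an intron of Itgae, read 5.62, 5.05 and 5.07 in WT, 6.76, 6.42 and 6.54 in Y3 and 5.36, 4.72 and 5.46 in Y3/CD103-/-. Like Itgae it was higher in Y3 than in WT, but unlike Itgae it was near WT in Y3/CD103-/-. Its difference was -1.39 against Y3 (-1.90 to -0.88, adjusted p = 0.182) and -0.06 against WT (adjusted p = 0.937). Pbx2, the gene of next smallest p against Y3, read 3.98, 4.15 and 4.15 in Y3 and 2.96, 3.04 and 2.81 in Y3/CD103-/- (-1.16, adjusted p = 0.0730).

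**Figure D4:**
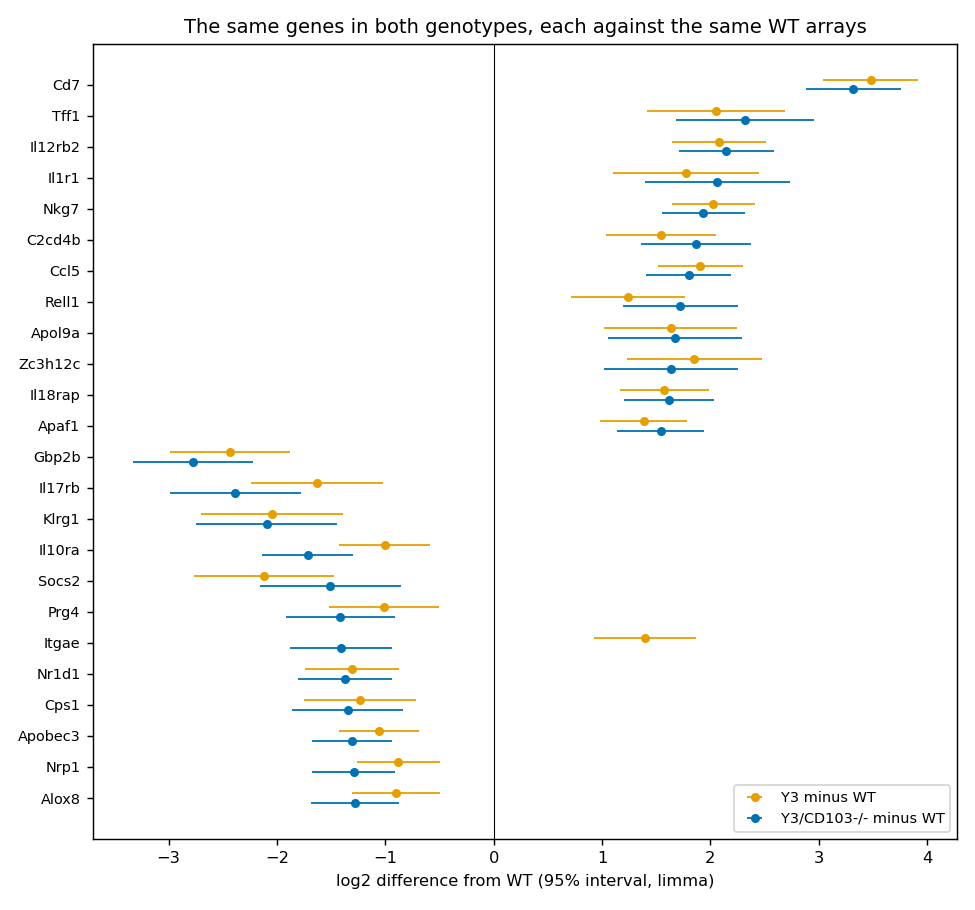
Points are log2 differences from WT and lines their 95% limma intervals, for the 24 genes of largest change in Y3/CD103-/- (blue), with Y3 in orange; both use the same WT arrays, so likeness between them is no independent evidence. Itgae, at -1.41 and 1.40, is the gene whose points lie on opposite sides of 0.

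Epithelial markers lay lower in Y3/CD103-/-, with a mean of 5.31 ± 0.54 (SD, n = 3) in WT and 4.43 ± 0.80 in Y3/CD103-/-. Of 38 markers 32 were tested, 30 of those were lower, and the median was -0.57. With limma 0 passed, and 0 lay higher and 10 lower with an unadjusted p under 0.05, against 7.9% higher and 5.35% lower over all tested genes. Defa24, an antimicrobial peptide of Paneth cells, had the largest difference of any tested gene. It read 9.81, 9.53 and 6.38 in WT and 4.60, 4.39 and 2.80 in Y3/CD103-/- (-4.65 ± 1.14, adjusted p = 0.0940), and its close relatives may share its signal. Lyz1, the lysozyme of the same cells, read 8.64, 8.53 and 4.94 against 4.49, 2.60 and 3.45 (-3.86, adjusted p = 0.123). In both genes the groups did not overlap and WT array 3 lay well below the other WT arrays. Fabp2, a fatty acid binding protein of enterocytes, read 5.87, 7.93 and 6.16 against 4.87, 4.5 and 2.78 (adjusted p = 0.0669), and Krt8, a keratin, 6.68, 7.39 and 6.73 against 7.66, 6.09 and 5.32, so that Y3/CD103-/- array 1 was highest of all 6 for Krt8. With the epithelial mean as a covariate 9 of the 107 genes passed. All 107 kept their direction and had an unadjusted limma p under 0.05 in that fit. The median ratio of the difference with the covariate to that without it was 0.999. The 107 had been chosen by small p in the fit without the covariate, and the epithelial mean itself differed between the groups. These values therefore do not measure the part of epithelial RNA in the differences, which was not tested. Conventional CD4 markers had 1 rise, Ifng, among 11 tested, with means of 5.55 to 5.68 in WT and 5.55 to 5.85 in Y3/CD103-/-.

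**Figure D5:**
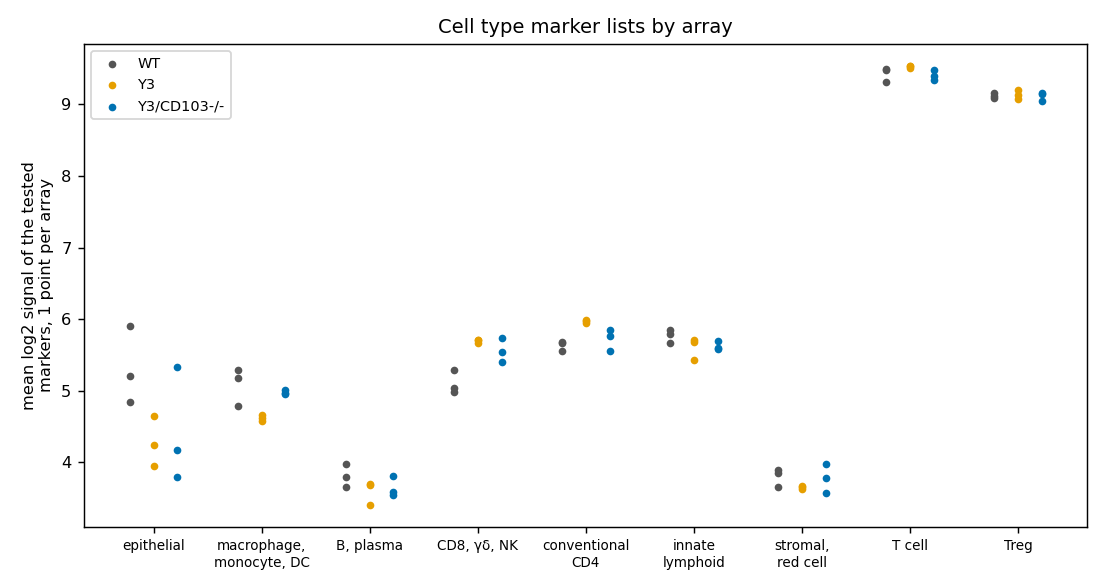
Each point is the mean log2 signal of a list's tested marker genes on 1 array, by cell type on the horizontal axis and by group in colour (WT grey, Y3 orange, Y3/CD103-/- blue). T cell and Treg markers lie above 9 on all arrays; the epithelial mean spreads from 3.79 to 5.32 within Y3/CD103-/-.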

How the data were processed

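The deposited values are log2 signals that the authors made with RMA from Affymetrix mouse Gene ST 2.0 arrays, per the submitters' processing notes, and the sources used here give no RMA version, annotation or build. Per the labels' protocols, RNA was amplified with a whole-transcriptome kit and biotin-labelled. Amplification from small amounts can widen the spread between arrays. No batch or hybridization date is given.

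Of 39137 features, 23521 had exactly 1 gene, 1814 several and 13802 none in the platform annotation; 23328 were found by identifier in a GRCm38.p6 gene table, which changed 0 symbols. The brightest feature was kept for each of 22180 genes, and a gene was tested if its value exceeded its own array's median on at least 3 of 9 arrays, which removed 9388. Group means of all 9 arrays were fitted with limma 3.58.1 (lmFit, eBayes; R 4.3.3; 10.8 degrees of freedom), and 2-sided p-values were adjusted by Benjamini-Hochberg over the 12792 genes of a comparison. Lists numbered 41 with 722 genes, 583 of them tested; they share members and are described without a test. The model was tested on simulated data of 12792 genes for Y3/CD103-/- versus WT, where it found 63% of the 2-fold changes and 95% of the 4-fold changes and made 11 false calls. A small share of the genes was changed, and the noise was normal and independent between genes and arrays. These figures describe the simulation and are not the error rate of the real calls.

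The genes named are the 12 largest rises and 12 largest falls that passed with groups that do not overlap, the 8 leading genes in each direction against Y3 where used, members of smallest p or passing in a list, and Itgae, Il2rb, Il2ra and Foxp3; predicted and small RNA genes (7 up, 3 down among those that passed) are counted and not named. Atp2a3, Cbx7, Ccr9, Cd8a, Cd8b1, Cish, Gpr15, Gzmk, Il21r, Itgb7, Krt8, Lyz1, Ncr1, Prf1, Socs3 and Tbx21 were named after their values were seen. The comparison, lists and tests were chosen with earlier results of these data known. Alternatives changed the filter, the feature of a gene, the scaling, the threshold and the variance model, weighted or left out arrays, and added the replicate number or the epithelial mean to the model.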

Additional observations from a re-analysis of the deposited data

Results flagged for a closer look

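Itgae stood out because its difference from WT has opposite signs in the Y3 genotypes: 1.40 in Y3 and -1.41 in Y3/CD103-/-. The difference between them, -2.81 log2, passed limma's test (adjusted p = 0.000679) and was tested directly.

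Features outside the gene tests passed at shares like that of features with 1 gene (31 of 13561, 0.229%) and of all features together (0.230%). With all features in the same limma fit, 17 of 7149 tested features with no gene listed passed in Y3/CD103-/- versus WT (0.238%), 13 up and 4 down. That fit adjusts over 21770 features, and its 31 passing features with 1 gene are fewer than the 107 of 12792 genes (0.836%) of the main fit. Of 1060 tested features with several genes, 2 passed (0.189%), both up. They are shared by Cables1 and Mir1901 (1.32 log2, adjusted p = 0.0431) and by Sytl3 and a predicted gene (1.48, adjusted p = 0.0416). Sytl3, a partner of the granule release GTPase Rab27a, also rose on a feature of its own, by 1.16 (adjusted p = 0.0274). That call passed only without Y3 array 2 or Y3/CD103-/- array 1 (0.0512 to 0.106 without any 1 of the others).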

How the results depend on the processing

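The count of 107 genes (71 up, 36 down) became 54 with no filter on dim genes and 215 when a gene had to exceed the median on all arrays, where 50 and 93 of the 107 still passed. It became 309 with a trended, robust variance model (106 of the 107 still passing), 60 with array weights, 17 with only the arrays of the compared groups and 9 with the epithelial mean as a covariate; all of the 60, 17 and 9 were among the 107. It was 280 at an adjusted p under 0.1, 111 with the mean of a gene's features, 124 after quantile normalization and 109 after centring, and 28 to 70 with an array left out. The 1 gene that differed from Y3 became 3 with the mean of a gene's features, 10 with the trended model, 9 with array weights, 2 at an adjusted p under 0.1, 1 to 2 with an array left out, and stayed 1 under the other alternatives. Same-numbered arrays did not deviate together (correlations of deviations from -0.044 to 0.107), so the numbers were not taken to pair the arrays; with the replicate number as a replicate block 55 genes passed against WT, 49 of them among the 107, and 1 against Y3. The difference of Haspin from WT, -0.06, ran from -0.20 to 0.17 with an array left out, and that of Itgb7, 0.00, from -0.12 to 0.12; Itgb7 was at -0.049 after quantile normalization, -0.017 after centring and -0.0007 with array weights, and Krt8, lower than in WT, at 0.53 with the epithelial covariate. The causes were not tested. With 3 arrays a group, changes under 0.72 log2 did not pass, and 11 of the 107 (5 up, 6 down) have their lower group mean under the highest array median.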

Other observations

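Of the 107 genes, 39 are in at least 1 list. The remaining ones were looked at after their values were seen, and the examples below were chosen then, with no test of a shared theme. Several encode proteins of vesicle release and the lysosome: Rab27a, a GTPase of granule docking, rose by 1.15 (adjusted p = 0.0129 in limma; 0.0692 without Y3/CD103-/- array 3), Cpd, a carboxypeptidase of the secretory pathway, by 1.03 (0.0178) and Ctsa, a lysosomal protease, by 0.83 (0.0447). Calcium pumps rose with Atp2a3: Atp2b4, of the plasma membrane, by 1.07 (0.0220). Genes of chromatin in dividing cells rose alongside Top2a, among them Hells, a remodelling helicase (1.29, 0.0247), Cenpa, the centromeric histone (0.76, 0.0447), H2ax, a histone of the DNA damage response (1.23, 0.0314), and Lmnb1, a nuclear lamin (0.89, 0.0347).

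Stress and metabolism genes outside the lists changed too. Ern1, the kinase and nuclease IRE1α of the unfolded protein response, rose by 1.01 (adjusted p = 0.0200 in limma), Ulk1, which starts autophagy, by 1.19 (0.0224), and Dgat1, which makes triglycerides, by 0.95 (0.0178). Ugcg, the enzyme that makes glucosylceramide, fell by 1.27 (0.00917), with any array left out, and Cerk, a ceramide kinase, fell by 1.05 (0.0259). Among the genes named here Ugcg alone passed whichever array was omitted. Ctsa, Cenpa and Lmnb1 did not pass in any fit with an array left out (limma adjusted p 0.0642 to 0.125, 0.0547 to 0.122 and 0.0534 to 0.102).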
